A study of Mus musculus with 42 samples.

Results

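A set of 3 features of the deposited expression table carry sequence that is labelled as ribosomal RNA-like: Gm23935, Lars2 and Mir6236. They are 3 of the 12988 features of the table and were taken by their symbols. They had been picked because their levels were higher with each dose in these same libraries, so their levels and differences below are a description and carry no test. The study asked what exposure of fathers to the plasticiser DEHP does to their offspring: adult C57BL/6J males received DEHP for 67 days and were mated with unexposed females. Embryos were collected at embryonic day 7.5, the gastrulation stage, and are labelled wild type, male and C57BL/6 * DBA/2J. The low group had fathers at 2.5 mg per kg per day, the high group had fathers at 25 mg per kg per day, and the control is labelled unexposed in the samples and vehicle in the series text. The labels list 12 RNA samples from embryonic and extra-embryonic tissue, 4 per group. The table used here has 6 libraries, 2 per group, named by treatment and number, with the tissue left out. Nothing in the labels says that the libraries of a group came from separate litters, or how many embryos made up a library, so p-values measure only the spread between these libraries.

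Ribosomal RNA is transcribed from repeated gene arrays by RNA polymerase I, cut and modified in the nucleolus, and makes up most of the RNA of a cell. Libraries for expression profiling are therefore usually made so as to leave most of it out, by selecting polyadenylated RNA or by removing ribosomal RNA. Copies and fragments of ribosomal RNA sequence also lie elsewhere in the mouse genome, and reads of ribosomal RNA can be placed on a gene that holds such a stretch. The labels give total RNA and standard Illumina library preparation. Which of the ways of leaving out ribosomal RNA was used is not given in the sources used here, and the ribosomal RNA-like nature of the features was taken from their label, since no ribosomal RNA sequence was used here.

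The members differ in kind. Gm23935 is a predicted gene that spans 57 bp, at chr16:11144125-11144181 (coordinates of the expression table, whose gene ends match GRCm38.p6). RefSeq places that span inside Zc3h7a, a zinc finger gene, at chr16:11136594-11176393. Mir6236 is annotated as a microRNA gene and spans 123 bp, at chr9:110281287-110281409, inside the RefSeq long noncoding RNA Gm39429 at chr9:110266638-110282670. Lars2 encodes the mitochondrial leucyl-tRNA synthetase, which charges the leucine tRNAs of mitochondria, and spans 95740 bp at chr9:123366927-123462666. Its transcript includes a stretch known for its likeness to ribosomal RNA.

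The mature microRNA of Mir6236 is shown because its base composition sets it apart in the RefSeq table. The seed, bases 2 to 8, is in capitals.
mmu-miR-6236: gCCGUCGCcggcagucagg
The 19 bases lie at chr9:110281353-110281371 on the plus strand (GRCm38.p6), from position 67 of the Mir6236 feature. G and C make up 78.9% of them, against a median of 52.2% over the 1738 mature mouse microRNAs of the table, of which 1.15% reach that share. Among these, 1 has this seed, namely miR-6236 itself. The expression table counts reads over the whole feature, so its values do not measure the mature microRNA.

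The start of Lars2 is shown because the methylation tiles described below begin just after it. The sequence is RefSeq's window from 250 bases before to 50 bases after the gene start (GRCm38.p6, chr9:123366677-123366976, plus strand), with each CG dinucleotide in capitals.
Lars2 promoter: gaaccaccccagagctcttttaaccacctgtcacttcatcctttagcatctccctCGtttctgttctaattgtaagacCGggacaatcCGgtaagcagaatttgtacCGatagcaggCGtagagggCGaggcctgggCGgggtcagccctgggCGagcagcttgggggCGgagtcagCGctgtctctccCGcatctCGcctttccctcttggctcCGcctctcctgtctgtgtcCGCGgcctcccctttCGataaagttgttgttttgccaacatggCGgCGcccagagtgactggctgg
It holds 18 CG dinucleotides, which read the same on both strands, and 29.7% of the 32851 promoter windows of that table hold as many or more; the median is 7.

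A further pair of features from the list of ribosomal RNA genes and ribosomal RNA-like features were measured. Of the 19 entries of that list, 5 had a row: the 3 members, and Gm26917 and Gm42418, predicted genes that the file gives by gene identifier only (ENSMUSG00000097971 and ENSMUSG00000098178). RefSeq holds Gm42418 as a synonym of Rn18s-rs5, a ribosomal RNA-related pseudogene at chr17:39846354-39848202. The other list entries, among them the annotated ribosomal RNA genes, had no row and are not analysed here.

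Levels are given in CPM as deposited, which the authors scaled in a way not given in the sources used here: all rows of a library sum to 982921 to 1017430. The order is control 1, control 2, low 1, low 2, high 1, high 2. Gm23935 was measured at 56.6, 36.6, 128, 125, 192 and 195 CPM. The groups did not overlap, and the gap between control and low was the wider step. On the log2(CPM + 1) scale the low libraries were above control by 1.45 (SE 0.17), the high libraries above control by 2.07 (SE 0.17), and the high libraries above low by 0.61 (SE 0.17). As a ratio of mean CPM this was 2.71-fold for low and 4.16-fold for high over control.

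Lars2 was the most abundant of the 3 in CPM, at 402, 348, 511, 449, 712 and 611 CPM. Again every low library was above both controls and every high library above both low ones. Its log2 differences from control were 0.35 (SE 0.11) for low and 0.82 (SE 0.11) for high, or 1.28-fold and 1.76-fold in mean CPM. High against low gave 0.46 on the same scale.

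Mir6236 was scarce, at 3.34, 2.41, 4.74, 4.15, 7.56 and 6.48 CPM. The order of the groups was that of the other members, without overlap. The log2 differences from control were 0.50 (SE 0.14) for low and 1.06 (SE 0.14) for high. Since 1 CPM was added before the logarithm, the fitted change understates that of a feature this low: its mean CPM was 1.55-fold control in the low libraries and 2.44-fold in the high ones.

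**Figure D1:**
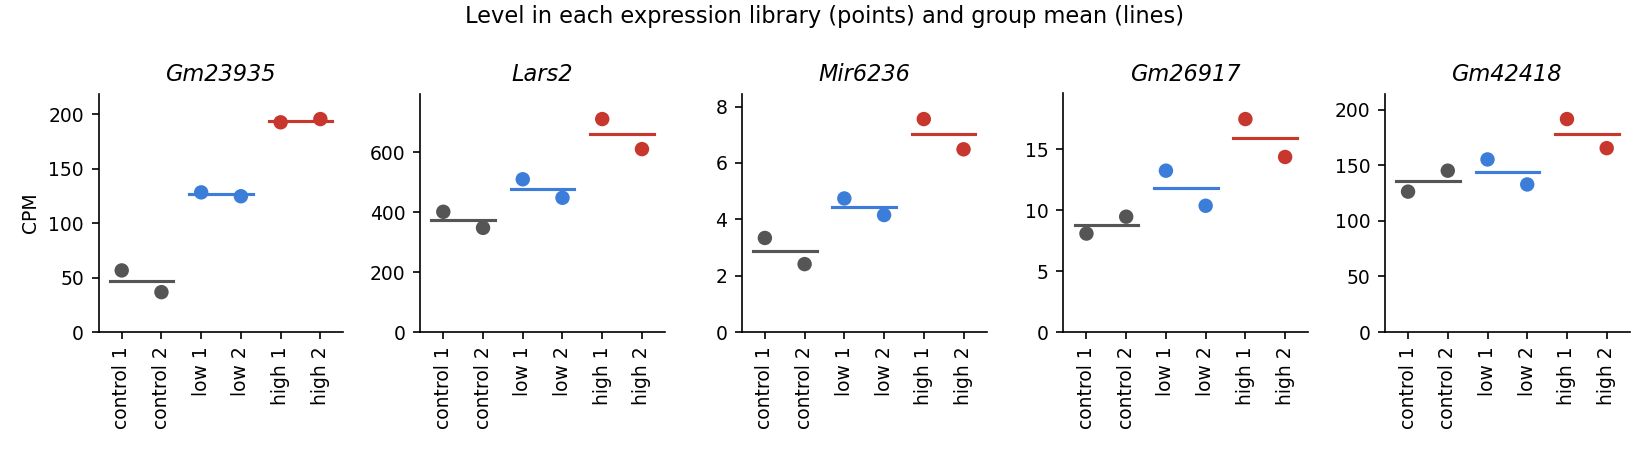
Level in CPM (vertical axes, each from 0) of the 3 members and of Gm26917 and Gm42418 in the 6 expression libraries (horizontal axes); points are libraries and lines are group means. Control, low and high do not overlap for Gm23935, Lars2, Mir6236 and Gm26917, while for Gm42418 the low libraries overlap the controls.

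Both high libraries were above both controls for 3 of 3 members, as for 23.5% of the 12987 features tested. Both low libraries were above both controls for 3 of 3, against 18% of features, and both high above both low for 3 of 3, against 21.8%. The full order, control below low below high without overlap, held for all 3 and for 219 features in all (1.69%). Since the members were chosen for this order, nothing is read from these counts. By the size of the log2 difference between high and control they ranked 1 (Gm23935), 8 (Mir6236) and 20 (Lars2). Low and high were compared with the same 2 control libraries. Of the members, Gm23935 was past an adjusted p of 0.05 in limma's moderated test for high against control, the single feature called (0.0077%); it was chosen on this contrast, and the number of calls was 0 without either high library, without limma's trend or with the replicate number as a block.

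Gm26917 and Gm42418, which the rule did not use, were also highest in the high libraries. Gm26917 was measured at 8.09, 9.47, 13.2, 10.4, 17.5 and 14.4 CPM, the same order of groups as the members. Its log2 difference for high against control was 0.79 (SE 0.14, limma, unadjusted p 0.000754, adjusted p 0.866), and for low against control 0.38 (SE 0.14, adjusted p 0.928). Gm42418 was at 126, 145, 155, 133, 192 and 165 CPM. For that feature the low libraries lay among the controls (0.08, SE 0.11, limma adjusted p 0.961), and both high libraries were above all 4 others (0.39, SE 0.11, unadjusted p 0.00734, adjusted p 0.866). Neither feature passed the test over all features. Both high libraries were above both controls in each, as in 23.5% of all features tested. Over all features, 3.65% were higher at an unadjusted p under 0.05 in limma. The list that holds Gm26917 and Gm42418 was compiled with earlier results of these data known.

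The 5 features moved by different amounts. High over control, mean CPM stood at 4.16 for Gm23935, 2.44 for Mir6236, 1.81 for Gm26917, 1.76 for Lars2 and 1.31 for Gm42418. The ratio of Lars2 to Mir6236 was 120 and 144 in the controls, 108 and 108 in the low and 94.2 and 94.3 in the high libraries, so Mir6236 gained on Lars2 with dose. Gm23935 gained most in the first step: per 100 CPM of Lars2 there were 14.1 and 10.5 CPM of Gm23935 in the controls, 25.1 and 27.8 in the low and 27 and 32 in the high libraries. The ratio of Lars2 to Gm42418 was 3.18 and 2.40 in the controls and 3.29 and 3.38 in the low libraries. In the high libraries it was 3.71 and 3.70, so Lars2 gained on Gm42418 with dose, without overlap of the groups.

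Within groups, Lars2 and Mir6236 shared the direction of their spread. Library 1 was above library 2 for Lars2 by 1.15-fold, 1.14-fold and 1.16-fold in control, low and high, and for Mir6236 by 1.38-fold, 1.14-fold and 1.17-fold. Gm23935 had this only in the controls and, slightly, in the low group (1.54, 1.03 and 0.985). For Gm26917 and Gm42418 the controls went the other way (0.854 and 0.870), while library 1 was the higher in low and high. Over the 6 libraries, Pearson's r of log2(CPM + 1) was 0.995 for Lars2 with Mir6236, 0.96 for Gm23935 with Mir6236 and 0.93 for Gm23935 with Lars2. These describe 6 points in 3 dose groups that share their library totals.

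Reads that the authors' counting placed at more than 1 position did not follow the members. That row of the table, alignments that are not unique, stood at 214775, 222216, 233337, 225202, 214112 and 204309 CPM, or 20.8% to 22.9% of all rows. The low libraries were above the controls and the high libraries below them. Against control the mean was 1.05-fold in the low and 0.957-fold in the high libraries, where Gm23935 stood at 2.71-fold and 4.16-fold. An exact two-sided permutation test gave p = 0.333 for each, the smallest that 2 against 2 libraries allow. The 5 features together made up 596, 542, 812, 721, 1121 and 993 CPM, which was 2.78, 2.44, 3.48, 3.20, 5.23 and 4.86 per 1000 CPM of reads that are not unique. They took 0.0766% to 0.158% of the sum of the gene rows. Pearson's r between that row and each of the 5 features lay between -0.42 and -0.22 over the 6 libraries. Rows for reads outside genes (6.31% to 6.83% of all rows) and in more than 1 gene (0.444% to 0.470%) were 0.976-fold and 1.02-fold of control in the high libraries.

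**Figure D2:**
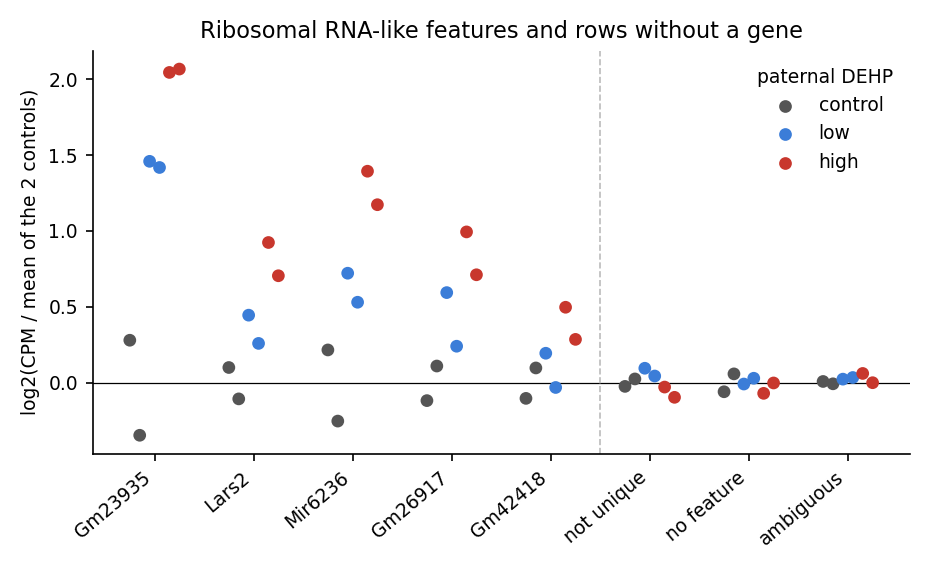
Log2 of the ratio of each library's CPM to the mean of the 2 controls (vertical axis) for the 5 features (left of the dashed line) and the 3 rows without a gene (right); each point is a library, coloured by group. The high libraries of Gm23935 lie near 2.07, while the row of alignments that are not unique has a mean ratio of 0.957 in the high libraries.

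Sequencing depth moved with the high dose. CPM values of each column are whole multiples of a smallest step (100% of values within 0.05 of a step), and the column totals in steps were read as relative depth, though that a step is 1 read was not established: 185, 189, 189, 194, 153 and 161, in units of 1e6 steps. High libraries were at 0.839 of control and low libraries at 1.02. Counted in steps, with no scaling to the total, high over control was 3.50-fold for Gm23935, 2.05-fold for Mir6236 and 1.48-fold for Lars2. Low over control was 2.73-fold, 1.56-fold and 1.29-fold in the same order. Over the 6 libraries, Pearson's r between the total in steps and each of the 5 features lay between -0.85 and -0.64. The part of depth or of library preparation in the rise was not tested.

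Levels of the members were set against the genes around them. Zc3h7a, the host of Gm23935, was at 25.9, 25.7, 25.9, 26.8, 25.9 and 30.6 CPM, with a log2 difference of 0.12 (SE 0.09, limma adjusted p 0.870) for high against control. Per kb of genomic span, Gm23935 was at 992, 643, 2248, 2186, 3375 and 3428 CPM, while its host ranged from 0.645 to 0.769. Span includes introns, so this scale does not compare transcript levels. On that scale Mir6236 ranged from 19.6 to 61.4 and Lars2 from 3.64 to 7.43. Elp6, an Elongator subunit and a neighbour of Mir6236, had a log2 difference of 0.09 (SE 0.08), and Limd1, next to Lars2, one of 0.07 (SE 0.06). Txndc11, next to Zc3h7a, had one of 0.22 (SE 0.07, limma adjusted p 0.866). None of the 4 neighbours passed the test, and each differed from control by less than the member beside it in these fitted values.

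As a synthetase gene, Lars2 was set beside the rest of its family. All 20 other mitochondrial aminoacyl-tRNA synthetase and charging genes were measured, and 0 were called in limma for high against control, with 0 at an unadjusted p under 0.05. Their median log2 difference was 0.04 against 0.02 over all features, and their range was -0.05 to 0.17, where Lars2 was at 0.82. The nearest, Mars2 (methionyl-tRNA synthetase), was at 6.66, 6.31, 7.87, 6.85, 7.56 and 7.33 CPM, a log2 difference of 0.17 (SE 0.10, limma adjusted p 0.866). Mtfmt, which formylates the initiator tRNA, was at 9.78, 9.71, 11.1, 10.5, 10.9 and 11.3 CPM, also a log2 difference of 0.17 (SE 0.08). Both high libraries were above both controls for 8 of the 20, against 23.5% of all features. In CPM, Lars2 had a mean over the libraries of 505, and the other 20 had means of 76.3 or less. Per kb of genomic span, Lars2 ranked 2 of the 21, with a mean of 5.28 CPM per kb, after Yars2 at 6.26. Span includes introns, so the rank per kb does not compare transcript levels.

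**Figure D3:**
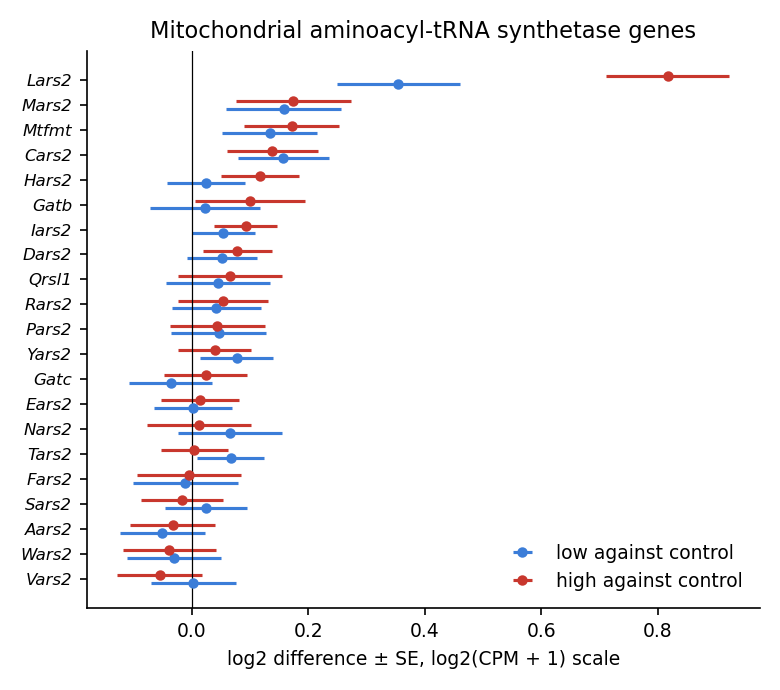
Log2 difference from control (horizontal axis, log2(CPM + 1) scale, bars are SE of the fit) for the 21 mitochondrial aminoacyl-tRNA synthetase and charging genes, for low and high. Lars2 lies at 0.35 and 0.82, and the other 20 lie between -0.05 and 0.17 for high against control.

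Genes that make and mature ribosomal RNA did not pass the test. All 17 genes of RNA polymerase I and its factors were measured, with a median log2 difference of 0.01 and a range of -0.09 to 0.09 for high against control. Ttf1, the terminator factor of ribosomal RNA transcription, was at 0.09 (SE 0.06, limma adjusted p 0.869). Of 69 genes for ribosomal RNA processing and modification 66 were measured, with a median of 0.03 and a range of -0.11 to 0.12. Imp3, a component of the small-subunit processome, was at 0.12 (SE 0.07, limma adjusted p 0.866). For low against control 61 of the 66 were above 0 (median 0.05), as were 6627 of the 12987 features tested. For high against low 57 of the 66 were below 0 (median -0.02), as were 5513 of all features tested. Both lists had 0 calls in either direction and 0 at an unadjusted p under 0.05. The share of all features at an unadjusted p under 0.05 was 3.65% upward and 1.64% downward.

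Small structural RNAs and replication-dependent histone messages, most of which lack a poly(A) tail, mostly had no row. Of the table's 12988 features, 12987 reached 1 CPM in 2 libraries, so it holds almost no feature below that level. Why a row is absent was not tested. Of 42 small structural RNAs 5 had a row, with a median log2 difference of 0.09 for high against control; Snord104, a small nucleolar RNA, was at 3.13, 3.17, 3.24, 4.03, 3.65 and 3.50 CPM. Of 66 replication-dependent histone genes 7 had a row, with a median of 0.02 and a range of -0.20 to 0.23. Of 25 nuclear long noncoding RNAs 17 had a row, with a median of -0.03 and a range of -0.18 to 0.50. The highest was H19, and Airn was at 0.41. In limma 0 of these features were called for high against control, and 0 had an unadjusted p under 0.05. Lists of satellite repeats (12 entries) and of transcripts of the mitochondrial genome (15 entries) had 0 rows.

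**Figure D4:**
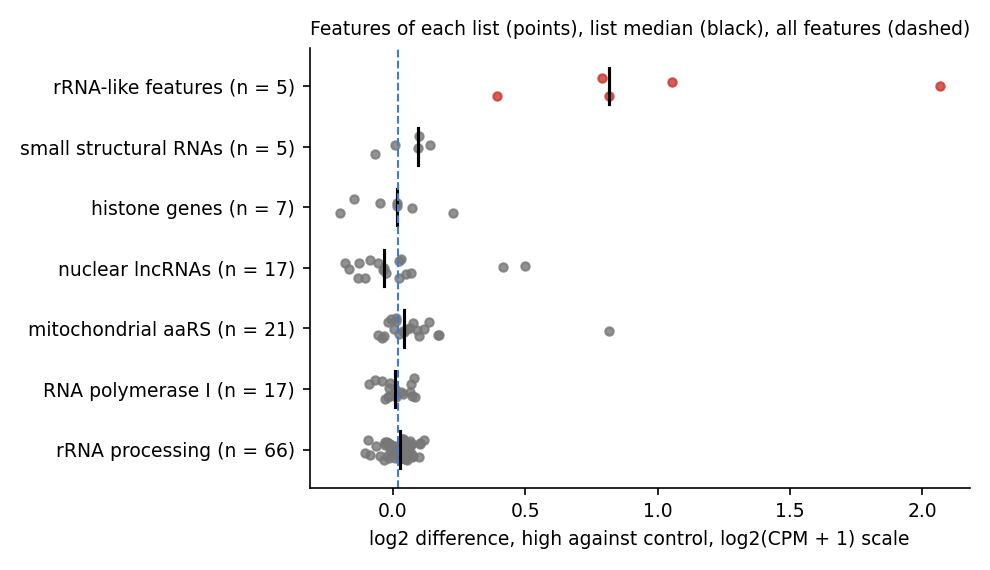
Log2 difference for high against control (horizontal axis, log2(CPM + 1) scale) of each measured feature of 7 gene lists; points are features, black bars list medians and the dashed line the median of all features (0.02). The 5 ribosomal RNA-like features lie between 0.39 and 2.07; the lone high point among the synthetases is Lars2, which is in both lists.

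Other short features had no common direction. Apart from Gm23935 and Mir6236, 54 features spanned 200 bp or less, with a median log2 difference of 0.00 for high against control, 27 above 0 and 27 below. The highest of them was Gm24187, the other feature of 57 bp, at 1.07, 1.06, 1.24, 1.24, 2.16 and 1.64 CPM, a log2 difference of 0.49 (SE 0.12, limma adjusted p 0.866), in the same order of groups as the members. Snord64, a small nucleolar RNA, was the lowest, at -0.60 (SE 0.19, limma adjusted p 0.866). The other 5 microRNA features ran from -0.19 (Mir302a) to 0.08 (Mir8094).

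The features whose profile was most like a member's over the 6 libraries were found among those with a mean of at least 5 CPM. For Gm23935 the 6 with the highest Pearson's r included Tagln2 (0.995), Tsen54, Pop5, Maip1 and Arhgap44; for Lars2 they were Ufd1 (0.988), Ccdc85c, Pex19, Atxn10, M6pr and Acad9; for Mir6236 they included Lars2 (0.995), Gga2, Ufd1, Sec61g and M6pr. The likeness is one of order and not of size. Tagln2, for example, ran from 73.8 to 82.1 CPM, a log2 difference of 0.13 for high against control. An r of at least 0.95 was reached by 52 features with Gm23935 (0.4%), 25 with Lars2 (0.193%) and 33 with Mir6236 (0.254%). Mir6236 itself could not enter the list of Lars2, since its mean is under 5 CPM, although their r of 0.995 is above that of Ufd1.

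Markers of tissues also differed between the groups, and the column names give no tissue. In bulk samples, fewer cells of a type and less RNA per cell cannot be told apart. All 12 visceral endoderm markers were measured, and their summed level was 1196 to 2485 CPM in the controls, 1934 to 2263 in the low and 2020 to 2709 in the high libraries. Control 2 was the lowest in that sum, as it was for each of the 3 members. All 12 had a positive log2 difference for high against control (median 0.48), as had 7612 of the 12987 features tested. The sum of high 1 lay below that of control 1. Of 15 trophoblast markers 11 had a row (Elf5, Gcm1, Rhox9 and Tpbpa had none), with sums of 106 to 162, 147 to 212 and 167 to 212 CPM and a median difference of 0.50. All 14 embryonic markers were measured, with sums of 1284 to 1409, 1361 to 1572 and 1025 to 1205 CPM and a median of -0.31. Decidua markers (5 of 10 with a row) summed to 42.8 to 49.5, 45.7 to 47.0 and 52.2 to 52.4 CPM. Among them Hand2 was at 4.33, 3.75, 2.94, 4.45, 6.61 and 7.94 CPM. Its log2 difference for high against control, 0.71, was the largest of the list. The median of the list was 0.08, with Alpl at 0.13, Bmp2 at 0.08 and Prl8a2 at -0.09. Blood markers (3 of 12) summed to 6.93 to 10.01, 10.5 to 11.9 and 6.30 to 9.37 CPM. In limma 0 markers of these 5 lists were called for high against control. At an unadjusted p under 0.05, 6 visceral endoderm, 3 trophoblast and 1 decidua markers were higher and 4 embryonic markers lower. Over all features the shares at that threshold were 3.65% higher and 1.64% lower. The part of these markers in the levels of the members was not tested.

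DNA methylation at the members was read from a separate table of reduced representation bisulfite sequencing, with 9 libraries, 3 per group, and percent methylation in tiles of 100 bp. Its columns, too, name the treatment and not the tissue. Gm23935 and Mir6236 had 0 tiles within 2 kb. Lars2 had 5 tiles, of which 2 start 174 and 274 bp after the gene start, just past the printed window. The first had 20.8% ± 0.74 (SD, n = 3) in control, 23.2% ± 3.24 in low and 24.2% ± 3.25 in high. There each high library was above the controls, by as little as 21.5% against 21.4%. How many of all tiles separate in this way was not counted, so nothing is read from it. The second had 23.9% ± 1.14, 23.5% ± 3.03 and 24.4% ± 2.30. The other 3 tiles lie in the gene body and had group means of 71.8% to 87.9%. No tile at Lars2 passed limma's test in any comparison (adjusted p 1 for each), where 0% of all 141251 tiles passed. At an unadjusted p under 0.05 there were 6270 tiles for high against control over the whole table and 0 of the 5 at Lars2.

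Averaged over the pair of tiles by the start, Lars2 was at 22.2%, 22.6% and 22.3% in the controls, 23.1%, 24.1% and 23% in the low and 23.2%, 24.8% and 24.8% in the high libraries. Controls were the lowest in both comparisons, by 1.02 percentage points against low and 1.91 against high (exact two-sided permutation p = 0.1, the smallest 3 against 3 allow; 0.45 after Benjamini-Hochberg adjustment over 9 comparisons of this kind). This average was chosen after its values were seen, so it is a description and its p-values carry no test. How often other pairs of tiles separate the groups was not counted. Over the whole table, tiles at an unadjusted p under 0.05 in limma were more often higher than lower. Against control there were 4602 higher and 3146 lower for low, and 3733 higher and 2537 lower for high.

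Rn18s-rs5, the locus of Gm42418, had 13 tiles within 2 kb, and was added after these tiles had been seen. Their mean was 15%, 21.8% and 33.3% in the controls, 24.3%, 22.4% and 24.3% in the low and 20.7%, 21.6% and 27.6% in the high libraries. The controls spanned the range of all others. High against control differed by -0.10 percentage points and low against control by 0.30 (exact two-sided permutation p = 0.9 for both, with 0.1 the smallest possible). Leaving out a library in turn moved the high against control difference between -4.26 and 4.84 points, so a difference of that size was not detectable. Reads of ribosomal RNA gene copies elsewhere can share this sequence, and the depth per tile is unknown.

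**Figure D5:**
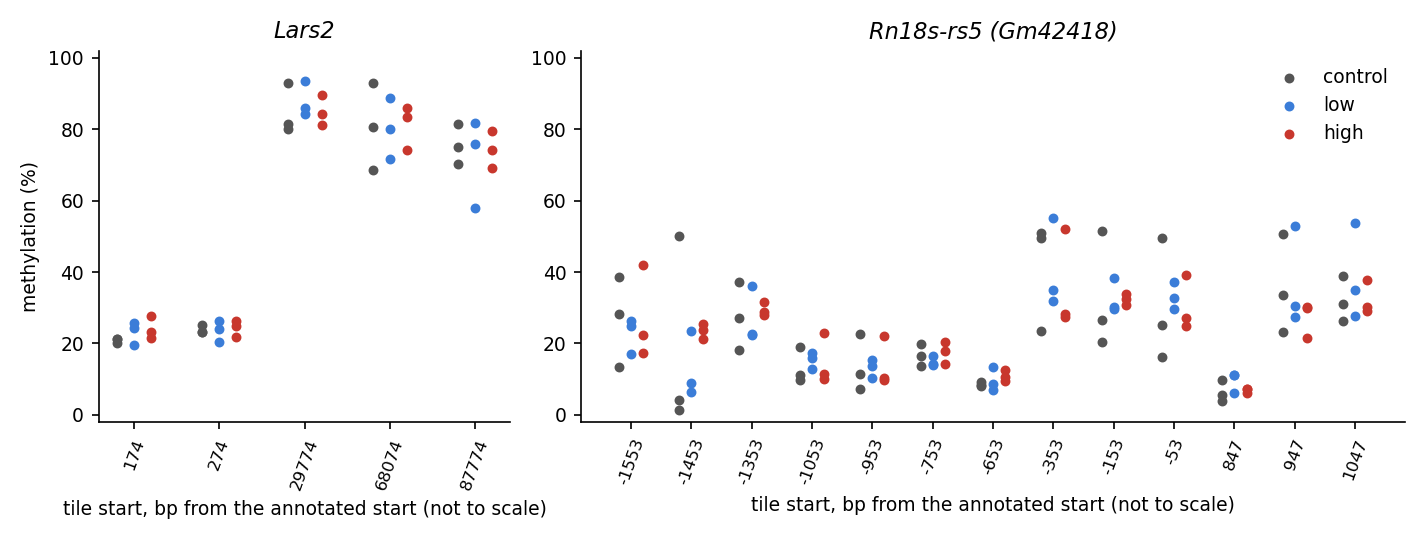
Methylation in percent (vertical axes) of each tile at Lars2 (left) and within 2 kb of Rn18s-rs5 (right), by the distance of the tile start from the annotated start in bp (horizontal axes, not to scale); each point is a library. At Lars2 the tiles at 174 and 274 bp lie between 19.6% and 27.8%, and those in the gene body between 57.8% and 93.5%. The groups overlap in all tiles but 1 at each locus (174 and -653 bp), where the high libraries lie above the controls. How many of all tiles separate in this way was not counted, so nothing is read from these.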

How the data were processed

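RNA sequencing was analysed in 6 libraries and bisulfite sequencing in 9. Expression values are CPM that the authors deposited, and methylation values are percent per tile of 100 bp, as deposited, with no coverage. Per the submitters' processing notes, which give no roles, the tools were Bowtie 0.12.2, Bowtie2, TopHat, edgeR, Trim Galore, methylKit, Bismark and SAMtools, and the builds mm10 and mm8. Library selection and the treatment of reads with several alignments before counting are not given in the sources used here.

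The 3 rows without a gene (reads that are not unique, 20.8% to 22.9% of all rows; reads outside genes, 6.31% to 6.83%; reads in more than 1 gene, 0.444% to 0.470%) were kept out of the fit. Libraries were grouped by the treatment in the column name. Features that reached 1 CPM in 2 libraries (12987 of 12988) were fitted as log2(CPM + 1) in R 4.3.3 by limma 3.58.1 with its trend option, all 3 groups in 1 fit with 3 residual degrees of freedom, and Benjamini-Hochberg adjustment over all features; a feature was called at an adjusted p under 0.05. Tiles were fitted in percent with limma, without a trend. The fit was tested on simulated data. A file symbol was missing for 105 features, of which 16 were named from a gene identifier table. Of 12728 features with a RefSeq entry, 77.7% had a start or end within 10 bp of GRCm38.p6, and the 15257 tiles in promoter windows of that build had a mean methylation of 7.70%, against 34.3% and 34.7% with the windows shifted, so that build was used for both.

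Members and lists were chosen with earlier results of these data known. Named features were the members, all measured ribosomal RNA-like features, up to 4 features of each other list with the smallest p for high against control, the 6 features most correlated with each member (some are not reported here), and the short features with the 3 highest and 3 lowest differences. Mir302a, Mir8094, Yars2 and the genes around the members were named outside that rule, after their values were seen. Alternatives were the pseudocount, the filter, the scaling, the trend, the groups in the fit, the replicate block and leaving out each library. Those for Gm26917, Gm42418 and the tiles at Rn18s-rs5 were chosen after seeing the data.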

Additional observations from a re-analysis of the deposited data

How the results depend on the processing

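Of the alternatives tried, 148 values for the comparisons moved by less than the spread between libraries (members), by at most 1.5 times (counts) or without a change of sign (alignments that are not unique), whatever their p. Among them, the filter, the trend, the groups in the fit and the replicate block could not move a member's fitted difference. Nor could leaving out a library of the group outside the comparison. Beyond these limits, 7 values of members moved, 11 counts rose and 6 counts fell. A further 41 kept their side of the threshold (Gm26917 and Gm42418) or moved within a wide spread (Rn18s-rs5 tiles, -4.26 to 4.84 points with a library left out). Gm23935 was chosen on these same contrasts, so its limma values are a description and carry no test. For high against control its adjusted p was 0.0438, and became 0.273 without a trend and 0.0558 with the replicate block. For low against control it was 0.254, and became 0.925 without a trend and 0.701 with the replicate block. All 3 members kept the order control, low, high under TMM scaling, scaling to the gene rows and quantile normalization. These moved the median of a library by at most 0.0175, 0.0138 and 0.0292 on the log2 scale. Shifts this small could hardly reorder the members, so little is read from the kept order. The number of features in that order fell from 219 to 119 with TMM and 120 with quantile normalization. The number of features called for high against control was 1, and became 0 in limma without a trend, 0 with the replicate block, 2 with only the 2 groups compared, and 0 to 2 when a library was left out (0 without high 1 or high 2, 2 without low 1 or low 2). High against low gave 0, then 9 with only the 2 groups, and 0 to 291 with a library left out (291 without low 2); low against control gave 0, then 0 to 65 (65 without low 2). Where a group is left with 1 library, that library is assumed to vary like the other groups. Causes were not tested. For Gm23935 the log2 difference ran from 1.15 to 1.76 (low) and from 1.76 to 2.37 (high) with a library left out, the extremes without control 2 and control 1. For Mir6236 it was 0.26 for low with a pseudocount of 5, and 1.27 and 0.61 for high with pseudocounts of 0.1 and 5. Adjusted p over the alternatives ran from 0.265 to 0.999 for Gm26917 and from 0.528 to 0.999 for Gm42418. The replicate numbers did not pair the libraries (correlations of deviations 0.0035, -0.07 and 0.09). Count models were not run, since the file holds CPM and its steps were not established as whole reads. With 2 libraries per group the spread of a single feature is poorly known.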
